A study of Homo sapiens with 29 samples.

Results

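The 10 genes described here are granins and other genes of the neuroendocrine secretory pathway: CHGA, CHGB, VGF, SCG2, SCG3, SCG5, CPE, CALB2, CPLX2 and SYP. They were taken by name from the deposited table of 23710 gene symbols, and all 10 were in it. The list was drawn up with results of these data in view: VGF, CHGA, CALB2 and CPLX2 were put forward as being among the largest changes, without saying in which comparison, so that these 4 were selected on their measured log2 changes. The changes of these 4 genes are therefore given with a standard error (SE) as a description and with no test, while the other 6 genes were tested where their level allowed it.

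Polyadenylated RNA was sequenced from H460 and H2122 cells, established human lines of non-small cell lung cancer that carry KEAP1 mutations, in 27 libraries that form 9 groups of 3. In H460, cells carried short hairpins (sh) against GFP as the control, or against NRF2, NR0B1 or SNW1, for 72 h. In H2122, cells carried hairpins against GFP or NRF2 for 24 h. A further set of H460 cells received DMSO, or BPK29 or BPK9 at 30 µM, for 12 h. Per the series text, the questions were which transcripts depend on NR0B1 in H460 and on NRF2 in both lines. NRF2 (gene NFE2L2) is the transcription factor of the oxidative stress response that KEAP1 marks for degradation, NR0B1 (DAX1) is an atypical nuclear receptor that represses transcription with other receptors, and SNW1 is a cofactor in both transcription and splicing. BPK29 and BPK9 are known here by code name only. The hairpin sequences, the number of hairpins per target and whether the 3 libraries of a group were separate cultures are stated nowhere in the labels used, so p-values measure only how far these libraries spread, and that spread may be technical. The lines differ in hairpin time as well, so line and time cannot be told apart.

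Granins are acidic proteins that aggregate in the trans-Golgi network and help to form dense-core granules, the vesicles from which endocrine cells and neurons release peptide hormones on a calcium signal. Prohormone convertases and carboxypeptidase E cut granins and prohormones into peptides inside these granules, and complexins, synaptophysin and the SNARE proteins belong to the machinery of vesicle fusion. Chromogranin A and synaptophysin are standard tissue markers of neuroendocrine tumours, and single genes of the group are also found in lung cancers that are not neuroendocrine.

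Levels of the knockdown libraries are in FPKM (reads per kilobase of gene length, scaled to library size). The whole reads behind each value were recovered from its steps and came to 16709805 to 24613353 in the knockdown set and 18948664 to 24653759 in the compound set, per library. The targeted transcripts were lower in their knockdowns: NFE2L2 was at 41.5 to 44.3 FPKM in H460 shGFP and 25.8 to 27.9 in shNRF2, and at 57.5 to 59.5 in H2122 shGFP and 25.8 to 27.5 in shNRF2. NR0B1 was at 45.7 to 48.9 FPKM in H460 shGFP, 17.2 to 19.0 in shNR0B1 and 8.82 to 9.35 in shNRF2, and SNW1 was at 49.3 to 52.3 in shGFP and 30.9 to 34.3 in shSNW1. These transcripts also differed outside their own knockdowns. NFE2L2 was at 52.7 to 55.6 FPKM in H460 shNR0B1 and 56.5 to 58.3 in shSNW1. NR0B1 was at 58.8 to 60.6 in H460 shSNW1, 17.5 to 19.9 in H2122 shGFP and 0.921 to 0.994 in H2122 shNRF2. SNW1 was at 43.0 to 45.8 in H460 shNRF2. Most genes tested differed in every knockdown at a limma adjusted p under 0.05: 87.3% in H2122 after NRF2 knockdown, and in H460 79.8% after NRF2, 69.8% after NR0B1 and 67.2% after SNW1 knockdown. By direction, 48.8% were higher and 38.5% lower in H2122, 40.9% and 39.0% after NRF2 knockdown in H460, 33.1% and 36.8% after NR0B1 knockdown, and 30.8% and 36.4% after SNW1 knockdown. A single call therefore sets a gene apart little, and the size of a change is read beside it. Rescaling to a common total moved the median change of all genes in H2122 by 0.13 and median-ratio scaling moved it by -0.14, both on the log2 scale. The common total moved it by 0.11 after NR0B1 knockdown. It also turned the share of calls that were higher from 47.3% to 63.5% after NR0B1 knockdown, from 45.8% to 58.7% after SNW1 knockdown, from 41.9% to 63.6% after BPK29, and from 42.0% to 61.1% in BPK29 against BPK9. Median-ratio scaling turned it the other way, from 55.9% to 46.7% in H2122 and from 51.2% to 48.0% after NRF2 knockdown in H460. Neither scaling turned the direction of a change reported below for the 10 genes, except in 2 CPE differences that did not pass the test (NR0B1 against SNW1 knockdown, and between the lines).

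Factors tied to the neuroendocrine lineage were at unequal levels. NEUROD1, a transcription factor of neuroendocrine cells, was listed at 0 in all 18 knockdown libraries, and the group mean of INSM1 was at most 0.0494 FPKM. PAX6 averaged 1.28 to 1.63 FPKM in the H460 groups, SOX2 averaged 4.25 FPKM in H2122 shGFP and 8.31 in H2122 shNRF2, and the broadly expressed FOXA1 and SOX4 were above them. REST, the repressor of neuronal and neuroendocrine genes, had group means from 3.87 to 11.01 FPKM. Keratins were high (6 epithelial markers summed to 1203 to 6795 FPKM per library), although EPCAM averaged 0.888 FPKM and CDH1 0.00957 FPKM in H460 shGFP against 333 and 75.7 in H2122 shGFP. In H460 the epithelial sum was 1977.5 to 2256.5 FPKM in shGFP, 2060 to 2173 in shNRF2, 1203 to 1229 in shNR0B1 and 1888 to 1947 in shSNW1. It was 4425 to 4485 in H2122 shGFP and 6505 to 6795 in H2122 shNRF2. Of 4 neuronal markers only MAP2 averaged 1 FPKM or more, in each of the 6 knockdown groups, and the summed neuronal level was 28.4 to 30.1 FPKM in H2122 shGFP and 3.75 to 4.26 in H2122 shNRF2. In H460 that sum was 3.28 to 3.84 FPKM in shGFP, 1.42 to 1.502 in shNRF2, 5.73 to 6.03 in shNR0B1 and 3.62 to 3.82 in shSNW1. The sum was lower in the shNRF2 libraries of both lines, where CALB2 and CPLX2 were lower too, and its part in those results was not tested. Of 5 immune markers, the pan-leukocyte gene PTPRC averaged at most 0.0164 FPKM and CD3E was listed at 0 in every group, while CD79A, LYZ and CD68 averaged 0.327, 0.359 and 45.5 FPKM in H2122 shGFP and 4.61, 5.16 and 96.5 in H2122 shNRF2. The immune sum was 45.5 to 46.951 FPKM per library in H2122 shGFP, 104.8 to 107.8 in H2122 shNRF2 and 20.8 to 27.7 in H460. The 3 endothelial markers summed to at most 0.379 FPKM in any library. The 4 fibroblast markers summed to 2.72 to 2.95 FPKM in H460 shGFP, 13.4 to 14.4 in shNRF2 (where DCN, decorin, averaged 10.3 against 0.800 in shGFP), 5.78 to 6.19 in shNR0B1 and 1.72 to 1.91 in shSNW1, and to 9.27 to 10.2 in H2122 shGFP and 13.6 to 14.3 in H2122 shNRF2. The epithelial, immune and fibroblast sums thus moved with the NRF2 knockdown of H2122, and the fibroblast sum also with each H460 knockdown. The immune sum lay below the control after NRF2 knockdown in H460 too (20.8 to 23.3 FPKM against 24.0 to 27.1 in shGFP). The epithelial sum also lay below the control after NR0B1 and SNW1 knockdown in H460. These shifts stand beside the results on CPE, CALB2, CPLX2, VGF and CHGA, and their part in those results was not tested. In libraries made from many cells, fewer cells that express a gene and less RNA per cell cannot be told apart.

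Promoter sequences are shown first because VGF and CHGA, the granins with the largest differences, differed from the control in opposite directions in each H460 knockdown. Sequences of 250 bases upstream of the start were held for 7 of the 10 genes (RefSeq, GRCh38.p14), and those of VGF, CHGA and CPLX2 are shown 5′ to 3′. CPLX2 is included as a gene of large change with none of the rarer motifs searched. Capitals mark the palindromic cAMP response element (CRE) TGACGTCA, the site that CREB proteins bind. The windows are chr7:101165570-101165819 on the minus strand for VGF, chr14:92922900-92923149 on the plus strand for CHGA, and chr5:175796283-175796532 on the plus strand for CPLX2.
VGF: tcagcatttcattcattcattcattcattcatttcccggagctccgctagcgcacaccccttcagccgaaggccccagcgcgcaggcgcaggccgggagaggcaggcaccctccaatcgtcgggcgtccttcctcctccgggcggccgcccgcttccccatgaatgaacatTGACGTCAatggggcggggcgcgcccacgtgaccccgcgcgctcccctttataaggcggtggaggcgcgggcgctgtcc
CHGA: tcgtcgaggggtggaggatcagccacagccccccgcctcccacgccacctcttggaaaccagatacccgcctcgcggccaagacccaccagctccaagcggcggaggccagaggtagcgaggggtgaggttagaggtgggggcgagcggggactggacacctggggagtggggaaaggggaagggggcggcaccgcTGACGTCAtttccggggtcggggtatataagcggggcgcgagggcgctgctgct
CPLX2: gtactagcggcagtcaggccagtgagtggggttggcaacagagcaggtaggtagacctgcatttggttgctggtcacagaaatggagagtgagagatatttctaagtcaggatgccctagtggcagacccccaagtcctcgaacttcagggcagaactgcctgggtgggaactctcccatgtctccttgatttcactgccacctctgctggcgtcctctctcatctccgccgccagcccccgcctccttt

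The CRE stood 79 to 72 bases before the start of VGF and 54 to 47 bases before that of CHGA, and in no other of the 7 windows. It was found in 1.77% of 27305 promoters of the same length. The antioxidant response element core TGACNNNGC, the motif that NRF2 binds with small MAF proteins, was found in 3013 of the 27305 promoters and among the 7 in VGF, 50 to 42 bases before the start, where it overlaps an E-box (CACGTG, 54 to 49 bases before the start). The AP-1 site TGANTCA (6.6% of promoters) and the NR5A site CAAGGTCA (1.17%) were in none of the 7 windows. The E-box CANNTG was in 62.2% of promoters and in 6 of the 7, SYP being the exception. Both strands were searched for each motif, and a match is a string of letters that shows no binding. The VGF and CHGA windows thus share the CRE, while the levels of these genes lay on opposite sides of the control, as given next.

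VGF, a granin-like precursor of several neuropeptides, was the member with the highest FPKM in H460 control cells. Its level was 43.9, 40.8 and 42.3 FPKM in H460 shGFP, 22.5, 21.2 and 21.96 in shSNW1, 4.94, 5.41 and 4.91 in shNR0B1, and 2.88, 3.20 and 3.31 in shNRF2. The 4 groups did not overlap. Most genes tested did not overlap shGFP either: 79.8%, 72.0% and 69.5% after NRF2, NR0B1 and SNW1 knockdown. These shares stand beside each separation from shGFP in H460 given below. Relative to shGFP, VGF was 13.5-fold lower after NRF2 knockdown (log2 change -3.39 ± 0.0501), 8.32-fold lower after NR0B1 knockdown (-2.83 ± 0.0501) and 1.93-fold lower after SNW1 knockdown (-0.92 ± 0.0501). All log2 changes here are on the log2(FPKM + 1) scale, where the change of a low gene comes out too small, and the H460 comparisons share the shGFP libraries. By size VGF ranked 3 among 11938 genes after NRF2 knockdown, 2 after NR0B1 knockdown and 400 after SNW1 knockdown. In H2122 the gene was near its limit of detection, with 14, 17 and 15 reads (0.248, 0.311 and 0.259 FPKM) in shGFP and 9, 8 and 5 reads (0.162, 0.158 and 0.0882 FPKM) in shNRF2. These low groups did not overlap either, as for 88.4% of the genes tested in H2122, and differed 2.01-fold on 46 against 22 reads, below the minimum level for a fit.

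CHGA, which encodes chromogranin A, was lowest in control cells and highest after SNW1 knockdown. The H460 libraries gave 4.54, 4.09 and 3.96 FPKM for shGFP, 9.71, 10.4 and 9.32 for shNRF2, 25.5, 28.7 and 25.4 for shNR0B1, and 36.0, 38.2 and 36.3 for shSNW1. No group overlapped another, and most genes tested did not overlap shGFP either (79.8%, 72.0% and 69.5% after NRF2, NR0B1 and SNW1 knockdown). The level was 8.77-fold that of shGFP after SNW1 knockdown (log2 change 2.86 ± 0.0578), 6.32-fold after NR0B1 knockdown (2.41 ± 0.0578) and 2.34-fold after NRF2 knockdown (1.06 ± 0.0578). The SNW1 libraries, closest to the control for VGF, were thus farthest from it for CHGA. After SNW1 knockdown no gene tested had a larger change by size than CHGA, which ranked 4 after NR0B1 knockdown and 1233 after NRF2 knockdown. H2122 held 1, 9 and 3 CHGA reads in shGFP and 1, 0 and 2 in shNRF2, so a difference was not detectable at this depth.

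**Figure D1:**
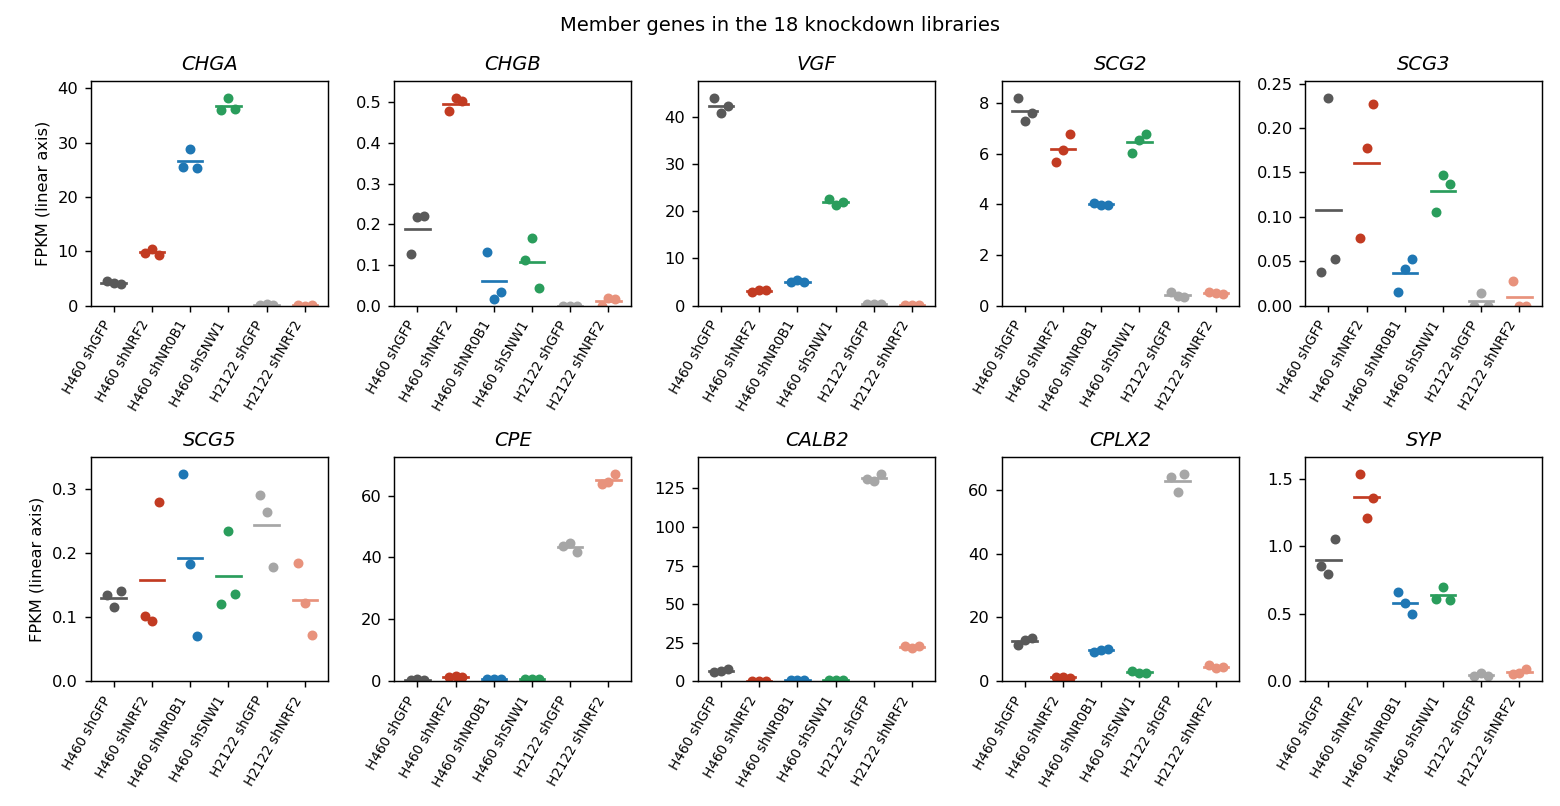
Level of each of the 10 genes in the 18 knockdown libraries. The linear vertical axes are in FPKM and start at 0, points are libraries and bars are means of 3. In H460 the VGF points lie at 40.8 to 43.9 in shGFP and at 2.88 to 3.31 in shNRF2, while the CHGA points lie above shGFP in all 3 knockdowns.

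SCG2, secretogranin II, a granin that yields the peptide secretoneurin, varied over a narrower range. Its values were 8.21, 7.32 and 7.63 FPKM in H460 shGFP, 6.04, 6.57 and 6.79 in shSNW1, 5.69, 6.15 and 6.78 in shNRF2, and 4.04, 3.99 and 3.97 in shNR0B1. Each knockdown group lay below all shGFP libraries, a separation from the control in either direction that 79.8%, 72.0% and 69.5% of all genes tested showed after NRF2, NR0B1 and SNW1 knockdown, while the shNRF2 and shSNW1 groups overlapped. SCG2 fell by 0.80 ± 0.0600 on the log2 scale after NR0B1 knockdown (1.93-fold, limma adjusted p = 6e-08) and by 0.28 ± 0.0600 after NRF2 knockdown (limma adjusted p = 0.000758). After SNW1 knockdown it fell by 0.22 ± 0.0600 (limma adjusted p = 0.00474), a call lost with a common total (-0.14, limma adjusted p = 0.0605) and on log2(RPM + 1), where RPM are the recovered reads scaled to library size without gene length (0.0524). SCG2 was higher in the NRF2 than in the NR0B1 knockdown by 0.52 ± 0.0600 (limma adjusted p = 2.59e-06, where 74.5% of genes were called, 37.8% higher and 36.7% lower, and 77.6% did not overlap), and lower in the NR0B1 than in the SNW1 knockdown by a log2 difference of -0.58 ± 0.0600 (limma adjusted p = 1.72e-06, where 67.8% were called, 34.7% higher and 33.1% lower, and 73.6% did not overlap). In H2122 it had 31, 20 and 20 reads in shGFP and 29, 26 and 25 in shNRF2, with overlapping groups.

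CHGB and SCG3, the other granins, were below 1 FPKM in every knockdown library and were not fitted. CHGB, chromogranin B, had 8, 12 and 10 reads in H460 shGFP and 20, 23 and 23 in shNRF2. In FPKM the shNRF2 libraries lay above the other 9 H460 libraries, and the mean was 2.64-fold that of shGFP (0.497 ± 0.0166 against 0.188 ± 0.0540 FPKM, SD, n = 3). In the same gene, shNR0B1 held 7, 1 and 2 reads and shSNW1 6, 9 and 2, with groups that overlapped each other. In H2122 shGFP no CHGB read was found among 64135239, which allows up to 0.0468 RPM from counting error alone, and shNRF2 held 0, 1 and 1. SCG3, secretogranin III, which binds chromogranin A at granule membranes, had 3, 16 and 3 reads in shGFP, 4, 10 and 13 in shNRF2, 1, 3 and 4 in shNR0B1, and 7, 10 and 8 in shSNW1. The shGFP group overlapped each knockdown group, and the H2122 libraries held 0 to 2 reads. A difference of SCG3 from the control was not detectable at this depth.

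SCG5 and CPE act on the maturation of granin peptides. SCG5, the chaperone of the prohormone convertase PCSK2, had 2 to 8 reads per library in H460 and in H2122, and its groups overlapped the control in each knockdown of both lines. CPE, carboxypeptidase E, which trims basic residues from the cut peptides, had control levels of 43.8, 44.6 and 41.9 FPKM in H2122 and 0.480, 0.597 and 0.456 in H460. The H2122 shNRF2 libraries were at 63.7, 64.5 and 67.0 FPKM, above all controls (88.4% of genes tested there did not overlap in either direction). CPE rose there by 0.57 ± 0.0308 on the log2 scale (1.498-fold, limma adjusted p = 7.22e-08). The H460 knockdowns gave 1.23, 1.72 and 1.36 FPKM in shNRF2 (47, 71 and 57 reads), 0.683, 0.805 and 0.681 in shNR0B1, and 0.716, 0.642 and 0.791 in shSNW1. All 3 groups lay above the H460 control libraries, and the shNR0B1 and shSNW1 groups overlapped. In either direction, 79.8%, 72.0% and 69.5% of genes tested did not overlap shGFP after NRF2, NR0B1 and SNW1 knockdown. CPE passed the minimum level in H460 through the 3 shNRF2 libraries alone, so that its difference there was built into the choice.

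The shNRF2 values of CPE in H460 are therefore given with no test: they were 2.81-fold those of shGFP in FPKM, a log2 change of 0.68 ± 0.0797 that read 1.46 in a count model (limma voom on the recovered reads). After NR0B1 knockdown it rose by 0.19 ± 0.0797 (limma adjusted p = 0.0476). That call was lost without any 1 of the 3 shNR0B1 libraries, without shGFP replicate 1 or shGFP replicate 3 (limma adjusted p = 0.0645, 0.147, 0.0657, 0.112 and 0.125), and with median-ratio scaling (0.0564). After SNW1 knockdown the value was 0.18 ± 0.0797 (limma adjusted p = 0.0556), and it passed the test without shGFP replicate 2 (limma adjusted p = 0.0426), with a pseudocount of 0.1 (0.0315), with a common total (0.0285), in the count model (0.0417) and on log2(RPM + 1) (0.0135). Between the NR0B1 and SNW1 knockdowns the difference was 0.01, with a 95% interval from -0.17 to 0.18 (limma adjusted p = 0.954).

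SYP, synaptophysin, a membrane protein of small synaptic-like vesicles, was low in H460 and close to absent in H2122. Its FPKM were 0.855, 0.794 and 1.05 in H460 shGFP, 1.54, 1.21 and 1.36 in shNRF2, 0.661, 0.579 and 0.501 in shNR0B1, and 0.612, 0.700 and 0.604 in shSNW1. The shNRF2 libraries lay above the control and the other knockdowns below it, with shNR0B1 and shSNW1 overlapping. Such separation from shGFP was common (79.8%, 72.0% and 69.5% of genes tested after NRF2, NR0B1 and SNW1 knockdown). SYP passed the minimum level through 4 of 12 libraries, the 3 of shNRF2 and 1 of shGFP, so the shNRF2 values, which let the gene in, are also given with no test. The shNRF2 mean was 1.52-fold that of shGFP in FPKM (log2 change 0.32 ± 0.0752). SYP fell by 0.27 ± 0.0752 after NR0B1 knockdown (limma adjusted p = 0.00636). These log2 changes read 0.61 and -0.59 in the count model. After SNW1 knockdown it fell by 0.21 ± 0.0752 (limma adjusted p = 0.0232), a call lost without shSNW1 replicate 1 (0.0624), shSNW1 replicate 3 (0.0659) or shGFP replicate 3 (0.0999), with a common total (0.059) and in the count model (0.0562). The NR0B1 and SNW1 knockdowns differed by -0.05, with a 95% interval from -0.22 to 0.11 (limma adjusted p = 0.546). H2122 held 2, 3 and 2 SYP reads in shGFP and 3, 3 and 5 in shNRF2.

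**Figure D2:**
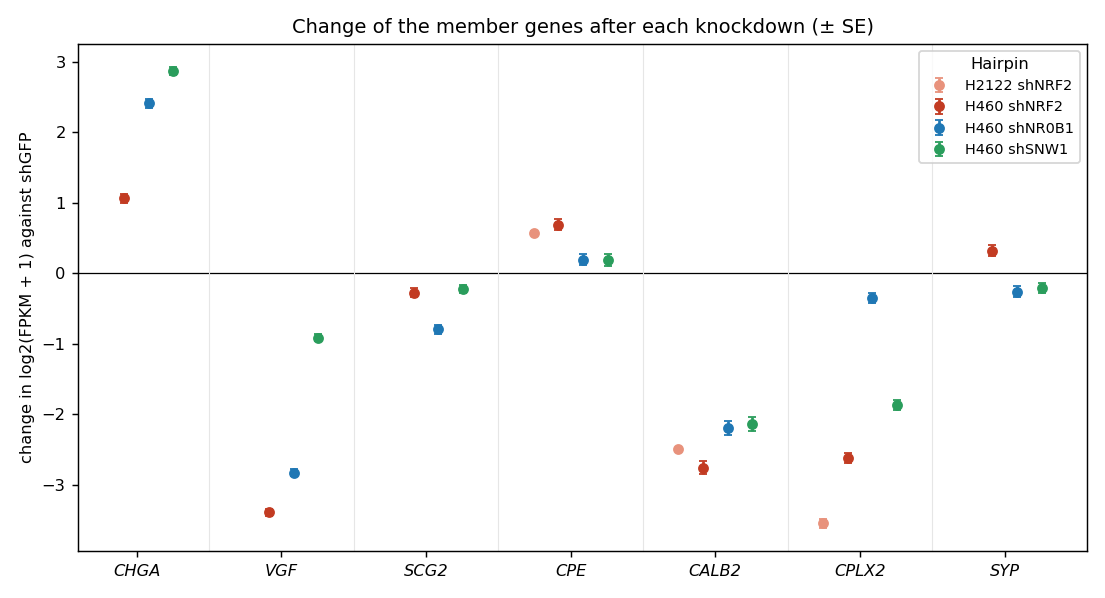
Change of the 7 genes that passed the minimum level, against the shGFP libraries of the same line, as the difference in log2(FPKM + 1) with its SE (bars). CHGA lies above 0 in the 3 H460 knockdowns and VGF below it, and CALB2 and CPLX2 lie below 0 in the 4 comparisons.

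CPLX2, complexin 2, which binds the assembled SNARE complex and times vesicle fusion, was high in the control cells of both lines. H2122 held 64.04, 59.4 and 65.0 FPKM of it in shGFP and 4.99, 4.04 and 4.32 in shNRF2. The groups were far apart, with the shNRF2 level 14.1-fold lower (log2 change -3.55 ± 0.0623), rank 10 by size among 11710 genes tested in H2122. The H460 values were 11.5, 12.8 and 13.6 FPKM in shGFP, 9.23, 9.65 and 10.2 in shNR0B1, 3.05, 2.71 and 2.45 in shSNW1, and 1.30, 1.17 and 1.15 in shNRF2. The 4 groups did not overlap, where 79.8%, 72.0% and 69.5% of genes tested did not overlap shGFP after NRF2, NR0B1 and SNW1 knockdown. CPLX2 was 10.5-fold lower after NRF2 knockdown (-2.63 ± 0.0692), 4.62-fold lower after SNW1 knockdown (-1.87 ± 0.0692) and 1.30-fold lower after NR0B1 knockdown (-0.35 ± 0.0692, or -0.23 with a common total). Unlike for VGF, the NR0B1 libraries were thus the closest to the control. Directly compared, CPLX2 was 8.05-fold lower in the NRF2 than in the NR0B1 knockdown (-2.28 ± 0.0692), and 3.54-fold higher in the NR0B1 than in the SNW1 knockdown (1.52 ± 0.0692).

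CALB2, calretinin, a cytosolic EF-hand calcium-binding protein used as a marker of mesothelium and of some neurons, had the highest level of the 10 genes in H2122 control cells. Its H2122 values were 131, 130 and 134 FPKM in shGFP and 22.6, 21.8 and 22.97 in shNRF2. The shNRF2 level was 5.87-fold lower (log2 change -2.50 ± 0.0270), rank 67 by size. The H460 libraries held 6.12, 6.37 and 7.68 FPKM in shGFP, 0.718, 0.464 and 0.888 in shNR0B1, 0.709, 0.729 and 0.807 in shSNW1, and 0.216, 0.0799 and 0.118 in shNRF2. The control libraries lay above all knockdown libraries, shNRF2 lay below the others, and shNR0B1 and shSNW1 overlapped. Over all genes tested, 79.8%, 72.0% and 69.5% did not overlap shGFP after NRF2, NR0B1 and SNW1 knockdown. CALB2 was 48.8-fold lower after NRF2 knockdown, on 10 reads against 604, 9.75-fold lower after NR0B1 knockdown and 8.99-fold lower after SNW1 knockdown. The log2 changes were -2.76 ± 0.0966, -2.20 ± 0.0966 and -2.14 ± 0.0966, and the first of them was -4.88 with a pseudocount of 0.1 and -5.50 in the count model. CALB2 passed the minimum level in H460 through the shGFP libraries alone.

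**Figure D3:**
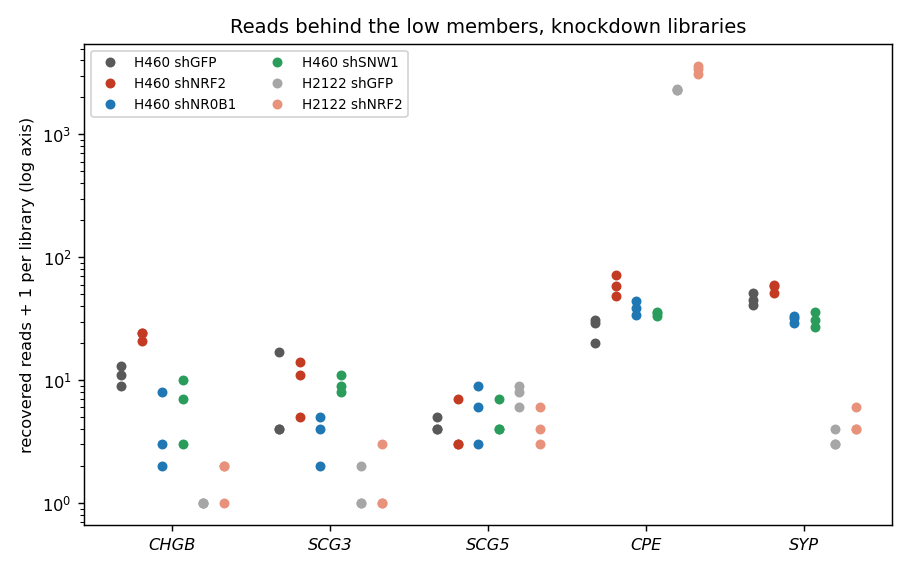
Recovered whole reads plus 1 behind CHGB, SCG3, SCG5, CPE and SYP in each knockdown library (log axis), with points coloured by group. CHGB, SCG3 and SCG5 stay at or below 23 reads in every library, whereas CPE in H2122 rests on 2304 to 3612 reads.

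The log2 change after NRF2 knockdown was compared between the lines (H2122 minus H460, limma's interaction term), which called 71.6% of 12798 genes, 37.4% with a higher change in H2122 and 34.3% with a lower one. CPLX2 was well expressed in the control cells of both lines, while CALB2 reached 1 FPKM in H460 in the shGFP libraries alone. With no test, the difference was 0.26 ± 0.0935 for CALB2, or 2.33 with a pseudocount of 0.1 and 2.80 in the count model. For CPLX2 it was -0.93 ± 0.0988, or -0.51 and -0.58 in those settings. For CPE the difference was -0.11 ± 0.0913, with a 95% interval from -0.31 to 0.09 (limma adjusted p = 0.285). On scales that shrink low levels less, the same difference passed the test: -0.74 with a pseudocount of 0.1 (limma adjusted p = 0.000799), -1.03 in the count model (0.000155) and -0.36 on log2(RPM + 1) (0.00749). For SCG2 it was 0.35 ± 0.0971 (limma adjusted p = 0.00593), lost in the count model (0.17). For SYP it was -0.28 ± 0.0881, given with no test for the reason above. Both SCG2 and SYP were below 1 FPKM in all H2122 libraries, so their difference between lines rests on H460.

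The compound libraries asked whether 12 h of BPK29 or BPK9 moved the same genes in H460. Gene lengths behind the deposited values of this set differ from those of the knockdown set, so levels are given as RPM and no level is compared across sets. The minimum level, log2 changes, ranks and p-values of this set still rest on its deposited FPKM, with those lengths. After BPK29, 50.4% of 11461 genes tested were called, 21.1% higher and 29.3% lower, and after BPK9 0.00873%, which is 1 gene by limma with 1725 at an unadjusted p under 0.05 (248 called by limma voom). Of the 10 genes, CHGA, VGF, SCG2, CPLX2 and SYP passed the minimum level. Their highest deposited values were 278 FPKM for CHGA, 24.4 for CPLX2, 5.55 for VGF, 1.91 for SCG2 and 1.80 for SYP. CALB2 reached at most 0.423 FPKM. The pseudocount of 1 therefore shrinks these changes unequally, so that log2 changes of different genes are not comparable in size here.

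CPLX2 showed the largest difference of these 5 genes after BPK29. It stood at 14.4, 14.2 and 14.9 RPM in DMSO, 7.15, 8.06 and 8.72 in BPK29, and 16.6, 17.7 and 15.4 in BPK9. The BPK29 libraries lay below all others and the BPK9 libraries above DMSO. CPLX2 was 1.82-fold lower after BPK29 (log2 change -0.87 ± 0.0660, rank 82 by size), 1.14-fold higher after BPK9 (0.17 ± 0.0660), and 2.07-fold lower in BPK29 than in BPK9 (-1.04 ± 0.0660). CALB2, below the minimum level, stood at 2.29, 2.47 and 1.79 RPM in DMSO, 1.00, 1.09 and 0.862 in BPK29, and 2.08, 1.63 and 1.76 in BPK9. Its BPK29 libraries lay below the DMSO libraries, as in 59.6% of genes tested in either direction, and the mean was 2.22-fold lower on 68 against 151 reads, while BPK9 overlapped DMSO (19.4% of genes tested did not overlap there).

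The granins differed less between the compound groups. CHGA stood at 21.6, 21.9 and 21.9 RPM in DMSO, 19.3, 19.7 and 18.02 in BPK29, and 22.1, 22.4 and 22.1 in BPK9. The BPK29 group lay below the control (log2 change -0.26 ± 0.0306) and the BPK9 group just above it (0.01 ± 0.0306). VGF stood at 17.1, 17.4 and 16.9 RPM in DMSO, 22.96, 20.3 and 23.8 in BPK29, and 17.7, 19.1 and 19.6 in BPK9. Both compound groups of VGF lay above DMSO. Its level was higher after BPK29 (log2 change 0.26 ± 0.0562, 1.30-fold in RPM) and nearer to the control after BPK9 (0.10 ± 0.0562). In either direction, 59.6% of genes tested did not overlap DMSO after BPK29 and 19.4% after BPK9. On log2(RPM + 1) the BPK29 change read 0.36 for VGF and -0.19 for CHGA. For CHGA and VGF alike, the BPK29 values lie on the other side of the control from those of the H460 NR0B1 and NRF2 knockdowns given above, at 12 h of compound against 72 h of hairpin.

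SCG2 and SYP were tested after the compounds. SCG2 stood at 20.7, 20.4 and 18.9 RPM in DMSO, 16.9, 17.2 and 17.9 in BPK29, and 17.9, 18.6 and 20.4 in BPK9. It fell by 0.17 ± 0.0517 after BPK29 (limma adjusted p = 0.0212), and this call was lost without BPK29 replicate 1 (0.0643) or replicate 2 (0.0568), without DMSO replicate 1 (0.0639) or replicate 2 (0.0617), and with a common total (0.0665). After BPK9 its change was -0.06, with a 95% interval from -0.17 to 0.06 (limma adjusted p = 0.652). BPK29 and BPK9, matched in dose and time, differed in SCG2 by -0.11, with a 95% interval from -0.23 to 0.00334 (limma adjusted p = 0.101, where 46.9% of genes were called, 19.7% higher and 27.2% lower, and 56.6% did not overlap), a difference that passed in the count model (0.0308). SYP stood at 2.62, 2.72 and 1.85 RPM in DMSO, 2.72, 2.31 and 2.95 in BPK29, and 2.38, 1.59 and 2.57 in BPK9. These groups overlapped throughout, with changes of 0.06 after BPK29 (interval -0.21 to 0.33, limma adjusted p = 0.71) and -0.09 after BPK9 (interval -0.36 to 0.18, limma adjusted p = 0.769). CHGB, SCG3, SCG5 and CPE had 1 to 11 reads in each compound library.

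**Figure D4:**
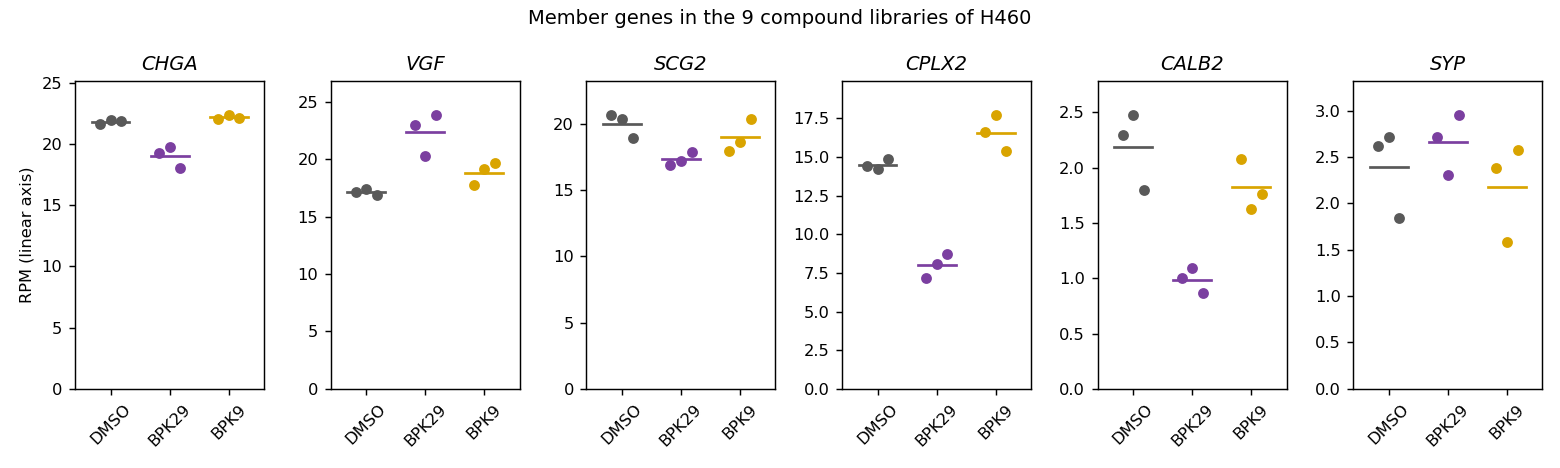
RPM of 6 genes in the 9 compound libraries of H460. The linear axes start at 0, points are libraries and bars are means of 3. The BPK29 points of CPLX2 (7.15 to 8.72) and CALB2 (0.862 to 1.09) lie below all DMSO and BPK9 points, and the SYP groups overlap.

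The enzymes that process granins and prohormones were counted next, from a list of 15 genes in the table. Of all genes tested, 40.9% were called higher and 39.0% lower after NRF2 knockdown in H460. The shares were 33.1% and 36.8% after NR0B1 knockdown, 30.8% and 36.4% after SNW1 knockdown, and 48.8% and 38.5% in H2122. They stand beside each count of this and the later lists. In these lists some tested genes reached the minimum level through 1 group alone, so that their difference was built into the filter. In H460, 10 of 12 tested rose and 1 fell after NRF2 knockdown (median log2 change 0.80, against 0.01 over all genes tested), 6 rose and 3 fell after NR0B1 knockdown (median 0.24 against -0.02), and 3 rose and 7 fell after SNW1 knockdown (median -0.30 against -0.03). Genes named from this and the later lists were picked for the largest called changes of their list, so their changes are a description. FURIN, the convertase of the trans-Golgi network, rose from 23.5 ± 2.36 to 274 ± 11.5 FPKM (SD, n = 3) after NRF2 knockdown in H460, a log2 change of 3.49 ± 0.0566. It also rose by 1.26 after NR0B1 knockdown, by 0.82 after SNW1 knockdown and by 1.04 in H2122. PCSK2, a convertase of dense-core granules, rose from 1.71 ± 0.199 to 9.62 ± 0.872 FPKM after NRF2 knockdown in H460, and fell by 0.75 after NR0B1 and by 0.95 after SNW1 knockdown. PCSK1, the other granule convertase, rose by 0.41 after NRF2 knockdown and fell by 1.08 after NR0B1 knockdown, by 2.03 after SNW1 knockdown and by 0.82 after BPK29. Both granule convertases thus lay above the control in shNRF2 and below it in shNR0B1 and shSNW1. In H2122, 6 of 8 tested rose and 2 fell, among them CTSL1, the table's symbol of cathepsin L, by 2.11 (from 288 ± 3.04 to 65.9 ± 2.12 FPKM). CTSL1 fell by 0.12 after NRF2 knockdown in H460, a call lost with a common total.

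Of a list of 48 genes of vesicle exocytosis, most of those tested rose after NRF2 knockdown. The tested genes include some that averaged 1 FPKM or more in shNRF2 alone. Examples are SYT11 in H460 (0.499 FPKM in shGFP, 1.88 in shNRF2) and SYTL5 in H2122 (0.533 and 3.05). There 20 of 24 tested rose and 2 fell in H2122 (median 0.55 against 0.09 over all genes), and 18 of 27 rose and 4 fell in H460 (0.42 against 0.01). After NR0B1 knockdown 16 rose and 5 fell, and after SNW1 knockdown 12 rose and 10 fell. DNAJC5, cysteine string protein, a chaperone of secretory vesicles, rose by 1.05 in H2122 and by 1.49, 0.94 and 0.93 after NRF2, NR0B1 and SNW1 knockdown in H460. STX1A, the SNARE protein syntaxin 1A, rose from 9.89 ± 0.760 to 26.7 ± 1.49 FPKM after NRF2 knockdown in H460 and by 0.32 in H2122. SYTL2, a synaptotagmin-like Rab effector, rose in H2122 by 1.45 and fell in H460 by 0.87, and VAT1, a vesicle membrane protein, rose by 0.47 and fell by 0.92. After BPK29, 5 of 24 rose and 7 fell, or 10 and 5 with a common total and 8 and 7 with median-ratio scaling. As deposited, these counts lie near the 21.1% higher and 29.3% lower of all genes tested.

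The relatives of the other members moved less evenly. Of the complexin and synaptophysin relatives (10 genes), 1 of 3 tested rose and 2 fell in H2122, and 2 of 5 rose and 1 fell in H460 after NRF2 knockdown. The list holds CPLX1, CPLX3 and CPLX4, the paralogs of CPLX2. CPLX3 and CPLX4 averaged at most 0.179 FPKM in any knockdown group. CPLX1 averaged 2.79 FPKM in H2122 shGFP and 1.51 in H2122 shNRF2, and 0.584 and 0.551 in those groups of H460. SYNGR2, a synaptogyrin of vesicle membranes, rose by 1.15 after NRF2 knockdown in H460 and by 0.35 in H2122, and SYPL1, a synaptophysin-like protein, fell by 0.70 after NR0B1 knockdown. SYNGR1 fell by 0.41 after SNW1 knockdown. Of 15 EF-hand calcium sensors related to calretinin, 4 of 7 tested rose and 3 fell in H2122, or 2 and 3 with median-ratio scaling. After each H460 knockdown 3 of 8 rose and 4 fell, or with a common total 4 and 1 after NR0B1 knockdown and 4 and 4 after SNW1 knockdown. As deposited, these counts lie near the shares of all genes tested. Those were 40.9% and 39.0%, 33.1% and 36.8%, and 30.8% and 36.4% after NRF2, NR0B1 and SNW1 knockdown. NCALD, 1 of these sensors, averaged 1 FPKM or more in H460 shNRF2 alone (2.38 FPKM against 0.512 in shGFP). NCS1, neuronal calcium sensor 1, fell by 0.66 in H2122 and rose by 0.88 after NR0B1 knockdown, while HPCAL1, a hippocalcin-like sensor, fell by 0.75 in H2122 and by 0.29 after NRF2 knockdown in H460. CALM2, a calmodulin gene, fell by 0.65 after NRF2 knockdown in H460 and by 0.31 after BPK29.

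**Figure D5:**
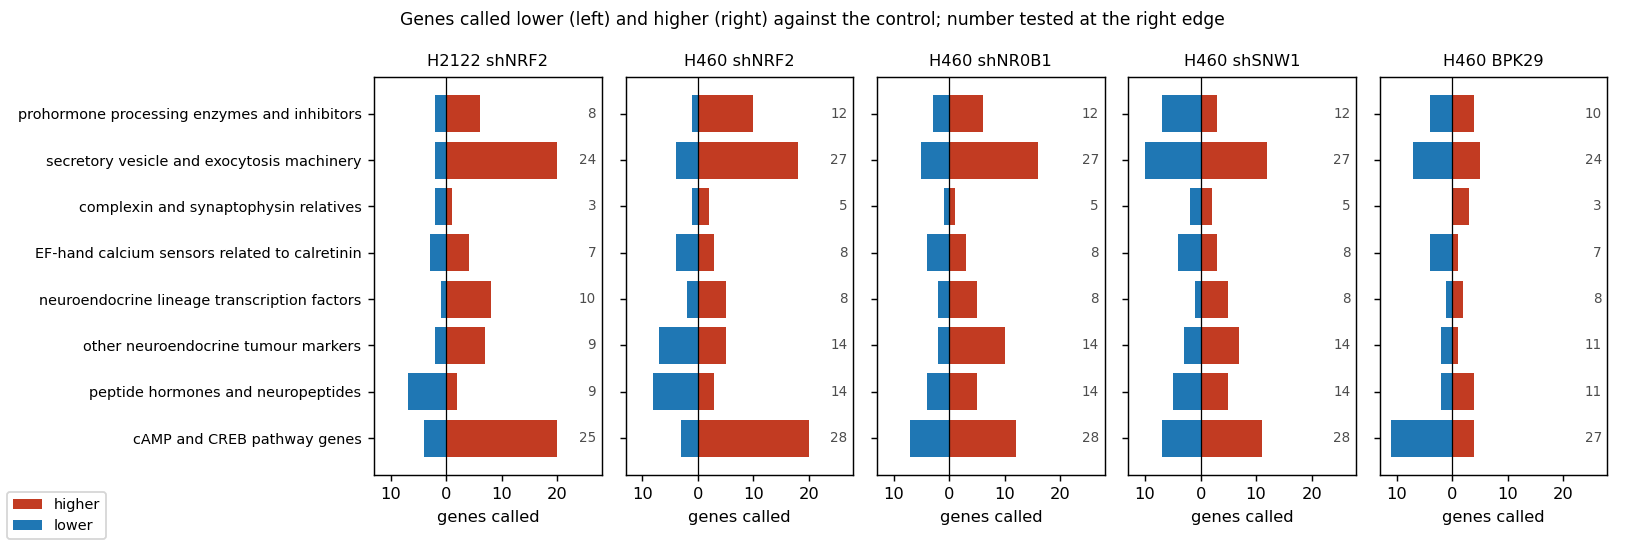
Number of genes of 8 related lists called lower (left of 0) and higher (right of 0) in 5 comparisons, with the number tested at the right edge of each panel. Bars of the exocytosis list reach 20 of 24 higher in H2122 shNRF2 and 18 of 27 in H460 shNRF2.

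Lineage factors, tumour markers and peptide hormones were counted in the same way. Of 27 factors tied to the neuroendocrine lineage, 8 of 10 tested rose and 1 fell in H2122, and 5 of 8 rose and 2 fell after NRF2 knockdown in H460. NEUROD1 was too low to be tested, and those named here are general regulators: SOX4, a progenitor factor, rose from 25.7 ± 1.12 to 114 ± 2.24 FPKM in H2122 and by 0.82 in H460, FOXA1, an endoderm factor, rose by 0.49 and 0.92, and NOTCH1, a receptor known to hold back neuroendocrine fate, fell by 0.67 and 0.57. HES1, the repressor downstream of Notch, rose by 1.02 in H2122 and by 0.46 in H460. Of 31 other tumour markers, 7 of 9 rose and 2 fell in H2122 while 5 of 14 rose and 7 fell in H460 after NRF2 knockdown, and 10 of 14 rose and 2 fell after NR0B1 knockdown. UCHL1, a neuronal ubiquitin hydrolase, fell from 803 ± 21.0 to 133 ± 1.89 FPKM in H2122 and by 0.80 in H460, NCAM1, the adhesion molecule CD56, rose from 5.37 ± 0.291 to 18.6 ± 1.01 FPKM in H460, and ENO2, neuron-specific enolase, rose in H2122 by 0.60 and fell in H460 by 1.07. CD24, a surface glycoprotein, rose by 0.72 (H2122) and 1.11 (H460) after NRF2 knockdown and fell by 0.56 and 1.16 after NR0B1 and SNW1 knockdown.

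Peptide hormone genes are the usual cargo of dense-core granules. After NRF2 knockdown 7 of 9 tested fell and 2 rose in H2122 (median -1.01 against 0.09), and 8 of 14 fell and 3 rose in H460 (median -0.21 against 0.01), or 6 and 3 with a common total, from a list of 43. GAL, the neuropeptide galanin, fell from 105 ± 5.59 to 14.5 ± 1.71 FPKM in H2122 and from 114 ± 3.71 to 69.0 ± 1.71 in H460. STC2, a stanniocalcin, fell by 1.40 in H2122, and GDF15, a stress-induced hormone of the TGF-beta family, rose by 0.38 in H2122, fell by 1.44 after NRF2 knockdown in H460, and rose by 1.12 after SNW1 knockdown and by 0.98 after BPK29. INSL4, an insulin-like peptide, rose by 0.70 in H2122 and 0.80 in H460 after NRF2 knockdown and fell by 0.68 and 1.11 after NR0B1 and SNW1 knockdown. Of 28 genes of the cAMP and CREB pathway, which acts on the CRE shown above, 20 of 25 tested rose and 4 fell in H2122, and 20 of 28 rose and 3 fell in H460 after NRF2 knockdown. After NR0B1 knockdown 12 rose and 7 fell, and after SNW1 knockdown 11 rose and 7 fell. After BPK29 4 of 27 rose and 11 fell, or 7 and 10 with a common total, where 21.1% of all genes tested were higher and 29.3% lower. CREB3L1, a membrane-bound CREB-family factor, rose from 1.12 ± 0.0952 to 19.2 ± 0.651 FPKM in H2122, ADCY3, an adenylyl cyclase, fell by 1.73 in H2122 and by 0.62, 0.61 and 0.58 after the H460 knockdowns, and NR4A1, an orphan receptor gene induced by cAMP, fell by 1.13 after NR0B1 knockdown. NR4A2, a related receptor, rose after NRF2 knockdown by 1.60 in H2122 and 1.47 in H460.

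Genes whose H460 pattern was most like each of the 4 large changes were taken by Pearson's r of log2(FPKM + 1) over the 12 H460 knockdown libraries, among 2402 genes whose group means spanned at least 1 log2 unit. The points share the library and the 4 groups, so r mostly reflects the order of 4 group means and is a description. For VGF these were PIP4K2A (r = 0.998), STOM (0.996), GNB4 (0.992), IGFBP6 (0.991) and SNUPN (0.989), all highest in shGFP and lowest in shNRF2. STOM, for instance, averaged 44.2 FPKM in shGFP, 35.0 in shSNW1, 20.5 in shNR0B1 and 18.4 in shNRF2. For CHGA they were PELI2 (0.993), SMARCD1 (0.987), FAM83H (0.982), MRTO4 (0.981) and LENG9 (0.981), with SMARCD1 at 18.6, 26.1, 34.5 and 38.8 FPKM in shGFP, shNRF2, shNR0B1 and shSNW1. For CALB2 they were FKBP11 (0.991), CLDN11 (0.986), GRHL3 (0.981), MSMO1 (0.981) and STRA13 (0.980), and for CPLX2 SLC38A5 (0.990), AQP3 (0.990), FAM101B (0.989) and ASS1 (0.988). Among the 4 genes themselves, r was 0.83 for VGF and CALB2, 0.75 for CALB2 and CPLX2, 0.50 for VGF and CPLX2, -0.27 for CHGA and CPLX2, -0.28 for CHGA and VGF, and -0.65 for CHGA and CALB2.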

How the data were processed

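RNA of 27 libraries was used as deposited: values in FPKM per gene, which the authors computed, per the file headers, in 1 column per library. The submitters' processing notes name STAR, featureCounts, DESeq2, Bowtie2, HOMER and hg19; versions and roles are stated in no source used here. In the compound columns 28 rows were blank, and the gene lengths behind them differ from those of the knockdown columns. The deposited NR0B1 peaks were not used here. Groups and replicate numbers came from the labels.

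Whole reads were recovered from the steps of each gene's values, up to a common divisor, within 0.02 reads, or 0.1 in a second pass for 11 genes of the compound columns. All 17871 knockdown and 16211 compound genes with at least 3 values came out whole. Counting intervals cover counting error only.

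Changes were fitted with limma 3.58.1 (trend on the mean, R 4.3.3) on log2(FPKM + 1), the pseudocount being 1, over genes that reached 1 FPKM in 3 or more libraries of the fit. Benjamini-Hochberg adjusted p-values over all genes were called under 0.05, two-sided, in 10 comparisons. One fit held the 12 H460 knockdown libraries and another the 9 compound libraries, so that groups in a fit share 1 estimate of the spread. Of the 10 genes described, 7 could be fitted in the H460 knockdowns, 3 in H2122 and 5 in the compound set. Python 3.11.15, numpy 2.4.6, pandas 2.3.3 and matplotlib 3.10.9 were used for the rest. On simulated data, 92% of 50 genes changed 1.5-fold were recovered in H2122, 92% in the NRF2 knockdown of H460, 90% after BPK29 and 76% in the difference between the lines. In the same order, 13, 9, 11 and 6 unchanged genes were called. The simulated spread was set and not fitted to the data. Far fewer genes were changed than were called in the real comparisons, so these rates need not hold there.

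The 10 genes and the 8 other lists were chosen with earlier results of these data known. From each other list up to 4 genes were named: those with the largest change in any comparison among genes called there at a mean of at least 5 FPKM in the higher group; some genes that the rules name are not reported here. Alternatives were a pseudocount of 0.1, no filter, a common total, median-ratio scaling, only the groups compared, each library left out, a replicate block, limma voom on the recovered reads and, added after the data were seen, log2(RPM + 1). Whether equal replicate numbers mark libraries made together is stated in no label used here.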

Additional observations from a re-analysis of the deposited data

Results flagged for a closer look

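By limma's interaction term, the change after NRF2 knockdown differed between H2122 (24 h) and H460 (72 h) in 27 of the 33 fitted genes looked at. That number includes SYP, whose value is no test. Apart from SYP, the limma adjusted p of the genes counted was up to 0.0107. In the same test 71.6% of all 12798 genes were called, and line and time cannot be told apart. The genes of the other lists were named for the largest change called in any comparison, this one among them, so the number that differed partly restates that choice. The values below are the log2 change in H2122 minus that in H460. Among the secretory genes SCG2 differed by 0.35. The value for SYP was -0.28, which is no test, since its shNRF2 libraries in H460 let it pass the minimum level.

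Processing enzymes had lower values in H2122, with FURIN at -2.45, PCSK2 at -1.97, CTSL1 at -1.99 and PCSK1 at -0.59. Genes of vesicle exocytosis were split, with SYTL2 at 2.32 and VAT1 at 1.39 against DNAJC5 at -0.43 and STX1A at -1.02. The vesicle proteins SYNGR2 and SYPL1 differed by -0.80 and -0.15. Among calcium sensors, CALM2 differed by 0.80, and NCS1 and HPCAL1 by -0.60 and -0.46.

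Of the lineage factors, SOX4 differed by 1.28, HES1 by 0.56 and FOXA1 by -0.43. Of the tumour markers, ENO2 differed by 1.67, and UCHL1, NCAM1 and CD24 by -1.79, -1.63 and -0.39. Of the hormones, GDF15 differed by 1.83, and GAL and STC2 by -2.06 and -1.34. In the cAMP and CREB pathway, CREB3L1 differed by 2.22 and ADCY3 by -1.12. PCSK1, PCSK2 and NCAM1 were too low to be fitted in H2122 alone, so their differences rest on H460.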

How the results depend on the processing

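Of the 60 values for the 10 genes, none changed direction in a call under any alternative run, and those that lost or gained a call are given with the results above, except for SYP between the lines, where no test is given. VGF, CHGA, CALB2 and CPLX2 have no call to lose, and the size of many of their changes moved by more than its SE. After NRF2 knockdown in H460, VGF read -3.76 and CPLX2 -3.39 in the count model (-3.39 and -2.63 as reported). CHGA after SNW1 knockdown read 3.15 (2.86 as reported). In the other named genes, 4 changes turned. With median-ratio scaling CALM2 and SNW1 in H2122 read -0.0076 and -0.041 (0.15 and 0.11 as deposited). With a common total, SNW1 read 0.12 after NR0B1 knockdown and 0.065 after BPK29 (-0.01 in each as deposited). The cause was not tested.

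The number of genes called after BPK9 was 1 as reported. It was 2 with no filter, 9 with a common total, 2 with only the groups compared, 248 by limma voom, 249 on log2(RPM + 1), and 1 to 2 when each library was left out. In the other 9 comparisons the number of calls stayed within 1.5 times under every alternative.

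Libraries of equal replicate number showed little likeness: over 30 pairs the correlation of deviations was -0.0933 to 0.130, and 4 exceeded 0.1. Such correlations cannot settle whether these libraries were made together. With a replicate block CPE in H2122 read 0.57 and SCG2 after NR0B1 knockdown -0.80, and none of the 60 values or 10 numbers of calls moved across its threshold.

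Depth limits CHGB, SCG3 and SCG5 in both lines, and VGF, CHGA, SCG2 and SYP in H2122. The log2(FPKM + 1) scale shrinks the changes of CPE, SYP and CALB2 in H460, where most libraries are near or below 1 FPKM. It also shrinks those of CPLX2 and VGF after NRF2 knockdown in H460. With a pseudocount of 0.1 they read -3.29 and -3.72 (-2.63 and -3.39 as reported), so ranks by size depend on the scale as well.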
